A study of Mus musculus with 30 samples.

Results

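Stool bacteria of wild-type (WT) female mice after re-separation were compared with those of WT female mice at weaning, in 10 of the 30 libraries of the study. The libraries were chosen by their labels alone, WT genotype at 1 of these 2 times: the 5 re-separated ones are numbered 26 to 30 and the 5 weaning ones 6 to 10. The study followed WT mice and mice lacking Gpr15l (Gpr15l-/-, KO), whose product is a peptide of gut and skin epithelium that binds the lymphocyte receptor GPR15. At weaning, at about 4 weeks of age, mice were placed at random in cages of 2 to 7 animals that mixed the genotypes for 4 to 5 weeks, and the genotypes were then kept apart for 6 more weeks. WT re-separated mice had therefore shared cages with KO mice, and WT weaning mice had not yet done so. A strain is not named in the labels, which also do not tie a library at one time to the same mouse at another. KO libraries at the same times (5 re-separated, 5 weaning) and the 5 WT libraries taken after co-housing serve only for comparison.

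Stool DNA was profiled by amplicons of the 16S rRNA gene (region V4), which all bacteria carry and whose sequence tells families and many genera apart; read shares also follow the gene's copy number and the PCR. In the mouse colon the order Bacteroidales breaks down plant and host polysaccharides, while the class Clostridia holds many anaerobes that ferment fibre or cross-feed on its products, some to butyrate, the main fuel of colon epithelium. Lactobacilli, which take up milk sugars, are typical of young animals, and weaning to solid food is followed by a growing share of Clostridia in the mouse gut. Mice eat faeces, so that cage mates exchange gut bacteria.

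The count table gave no variant (table row, 1 per amplicon sequence) with reads in both the 10 re-separation libraries and the 20 weaning and co-housing libraries. Of its 3697 rows, 468 had reads only in the re-separation libraries, 485 only in the others and 0 in both. Time and library set therefore change together here and cannot be told apart, and all comparisons were made after summing rows by genus, family or phylum name. WT re-separated libraries held 39703 to 73588 bacterial reads (mean 54792 ± 12994, SD, n = 5) and WT weaning libraries 15661 to 52364 (29907 ± 15033). Counts from 391 bacterial rows entered the sums in WT re-separated libraries and from 261 in WT weaning libraries. No WT library of either time stood apart from its group: the mean Bray-Curtis distance of each to its group mates was 0.221 to 0.274 in re-separated and 0.19 to 0.26 in weaning libraries. In the other groups this distance reached up to 0.5, in KO weaning. A set of 4 libraries, each the farthest or second farthest within its group, was left out as an alternative: 1 and 5 (KO weaning, 0.477 and 0.5), 11 (KO co-housed, 0.383) and 19 (WT co-housed, 0.464). KO weaning libraries 3 and 4, at 0.408 and 0.441, were kept in that alternative although they lay farther out than library 11. The 4 libraries enter the WT comparison only through the scaling and spread shared by all libraries. Reads named mitochondria made up 0.0392% to 0.333% of WT re-separated and 0% to 0.0649% of WT weaning libraries and were left out, no read was named chloroplast, and none of 5 skin genera had a read. Replicates were separate libraries: over the 20 pairs within the 2 WT groups, the chi-square of their counts divided by its degrees of freedom lay between 33 and 81.6, where sampling noise gives about 1. Since nothing says how mice were distributed over cages, p-values measure the spread between these libraries, which may be smaller than that between independent cages.

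More genera were found in WT stool after re-separation than at weaning. Reads of 81 genera were found in WT re-separated libraries and of 77 in WT weaning libraries, 68 of them in both, of 102 genera in the series. A single library held 65 to 73 genera after re-separation and 44 to 59 at weaning. KO libraries held 64 to 72 and 34 to 54, so the higher number is not particular to WT. All 5 libraries of the group held 58 genera after re-separation and 27 at weaning, and these 27 were also in every re-separated library. At the equal depth of 15661 reads, the expected number of genera was 66.1, 67.6, 65.8, 70.2 and 63.8 in WT re-separated libraries 26 to 30, against 47.7, 46, 57.5, 44.7 and 43.3 in WT weaning libraries 6 to 10. The lowest re-separated library thus lay above the highest weaning one, library 8, which was also the deepest weaning library (52364 reads). Only 5 counts of bacterial rows equal 1, so low counts may have been removed earlier. Equal depth cannot undo such a step. Means were 66.7 ± 2.38 and 47.9 ± 5.65 (SD, n = 5 each; exact two-sided permutation test, p = 0.00794, adjusted over 3 measures 0.00794, the smallest p that 5 against 5 allows).

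Indices that also weigh the shares were higher after re-separation. The Shannon index, which grows with the number of genera and the evenness of their shares, was 2.65 ± 0.162 in WT re-separated and 2.1 ± 0.207 in WT weaning libraries, and the inverse Simpson index, the number of equally common genera that would give the same dominance, 8.78 ± 2.27 and 5.05 ± 1.02. Both differed at p = 0.00794 in the exact permutation test, with no overlap between the groups (2.46 to 2.86 against 1.82 to 2.35, and 6.5 to 11.5 against 3.63 to 6.13). The 10 leading genera held 80.4% ± 3.54 of bacterial reads after re-separation and 90% ± 1.79 at weaning. The mean Bray-Curtis distance of genus shares was 0.328 between the 2 times, 0.25 among re-separated and 0.222 among weaning libraries. Time and library set together accounted for 43.6% of the squared distance (exact permutation test over all splits of 5 against 5, p = 0.0159). The range of the distances between the times, 0.146 to 0.579, reached below both within-group means. Prevotellaceae UCG-001 gave 16.3% and unnamed Muribaculaceae 15% of the distance between the times, followed by Lachnospiraceae NK4A136 group with 7.71%, Mycoplasma with 7.37% and Helicobacter with 6.6%.

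**Figure D1:**
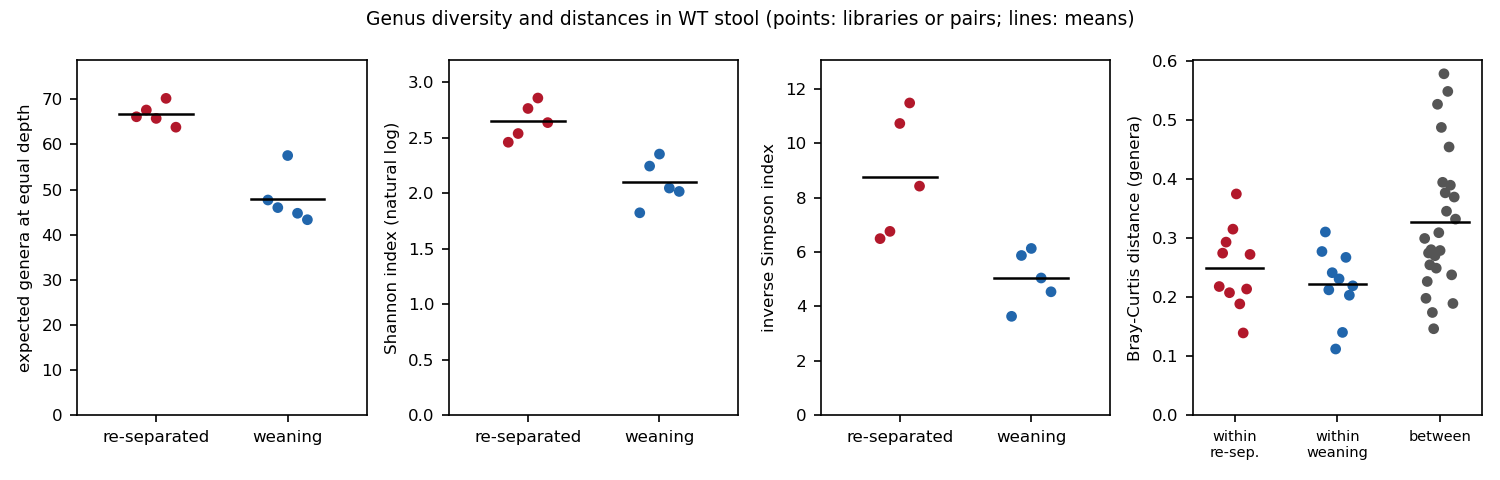
Expected genera at 15661 reads, Shannon index and inverse Simpson index of the 5 WT re-separated (left, red) and 5 WT weaning (right, blue) libraries, and Bray-Curtis distances between pairs of libraries within each group and between the groups; points are libraries or pairs and lines are means. All re-separated points lie above all weaning points in the 3 diversity panels, while distances between the times overlap those within the groups.

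At the level of phyla, WT re-separated stool held less Bacteroidota and more Cyanobacteria, Desulfobacterota and Deferribacterota than WT weaning stool. These are 4 of the 7 phyla tested at an adjusted p under 0.05 (exact permutation tests). Shares of 16S reads sum to a whole, so that more cells of one taxon and fewer cells of the others cannot be told apart. Bacteroidota made up 60.5, 72.3, 47.9, 41.6 and 60.9% of reads in re-separated libraries 26 to 30, against 85.3, 69.5, 73.4, 79.1 and 74.3% in weaning libraries 6 to 10. Only re-separated library 27 reached into the weaning range. The means were 56.6% ± 12 and 76.3% ± 6.09 (exact permutation test, adjusted p = 0.037, n = 5 each). Cyanobacteria, here entirely the non-photosynthetic gut order Gastranaerophilales, averaged 3.15% ± 2.97 and 0.162% ± 0.209 without overlap (exact permutation test, adjusted p = 0.0278, n = 5 each). Desulfobacterota, anaerobes that respire sulfate or taurine sulfonate to hydrogen sulfide, averaged 1.16% ± 0.121 and 0.358% ± 0.172, also without overlap (exact permutation test, adjusted p = 0.0278, n = 5 each). Deferribacterota, which is the mucus dweller Mucispirillum in mice, averaged 1.04% ± 0.839 and 0.168% ± 0.114 (exact permutation test, adjusted p = 0.0417, n = 5 each). Desulfovibrionaceae and Deferribacteraceae had the same shares as Desulfobacterota and Deferribacterota. As families they did not pass (edgeR quasi-likelihood test, adjusted p = 0.132 and 0.109). Firmicutes averaged 27.7% ± 11 after re-separation and 13.9% ± 6.21 at weaning, Campilobacterota 8.45% ± 1.58 and 4.21% ± 2.74, and Proteobacteria 1.75% ± 1.12 and 4.88% ± 3; none of these 3 passed after adjustment (exact permutation tests, adjusted p = 0.0556, 0.0556 and 0.0714). With library 6, 9, 10, 26, 28, 29 or 30 left out, 0 phyla passed; 3 passed without library 7, 6 without 8 and 5 without 27. The smallest exact p that 9 libraries allow is 0.0159 in each of these cases.

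**Figure D2:**
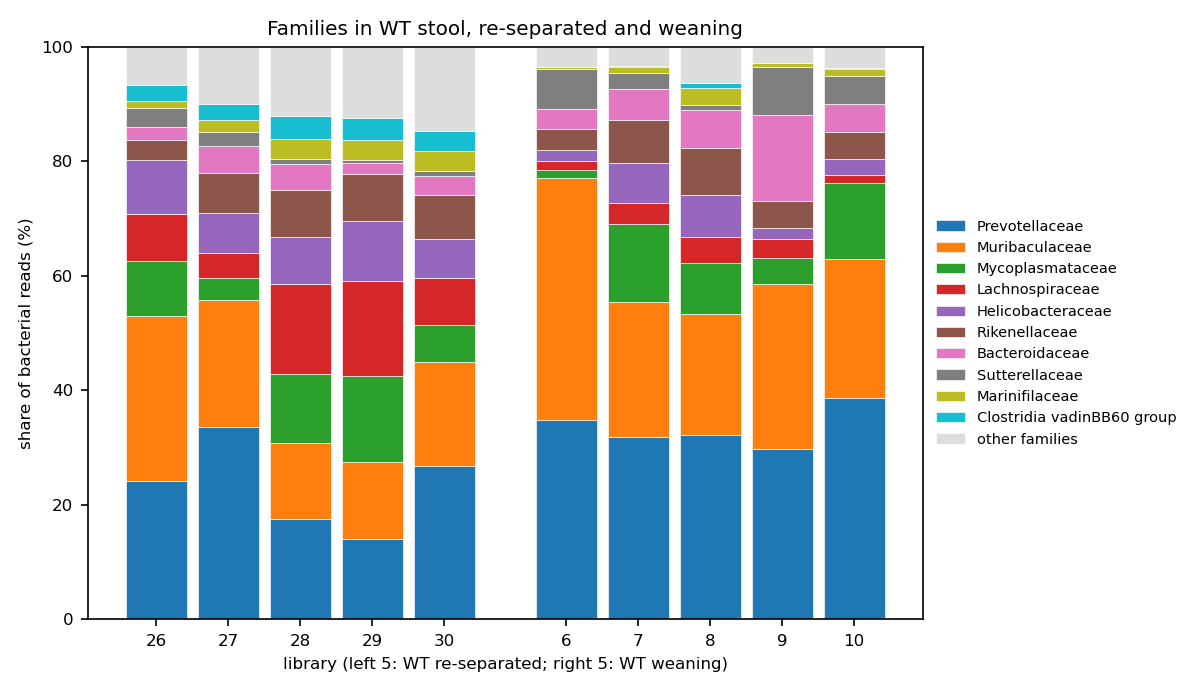
Share of bacterial reads (%) of the 10 leading families in each WT library, re-separated on the left and weaning on the right. The 10 families leave 6.6 to 14.6% of reads to others after re-separation and 2.7 to 6.2% at weaning, and the bands of Prevotellaceae and Muribaculaceae at the bottom are shorter on the left in most libraries.

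None of the 9 genera with the highest mean share over the 10 libraries passed the test between the times; the next, Clostridia vadinBB60 group, did. Prevotellaceae UCG-001, an uncultured lineage of a family of fibre degraders, made up 23.2, 29, 16.8, 13.4 and 24.7% of reads in re-separated libraries, against 32, 30.4, 31.1, 29.3 and 37.8% in weaning libraries. Every re-separated library lay below every weaning library, the closest being re-separated library 27 and weaning library 9. On the scaled log2 scale of the test the difference was -1.24 ± 0.53 (SE; edgeR quasi-likelihood test, adjusted p = 0.106), which missed the threshold. The median log2 difference over all 76 genera tested was 0.56 with the TMMwsp scaling used and 1.14 with library size alone; values are to be read against that median. Unnamed genera of Muribaculaceae, the family that dominates Bacteroidales in the mouse gut and forages on mucin and plant glycans, held 27.7, 21.8, 13, 13.2 and 17.7% after re-separation, against 40.5, 22.8, 20.8, 28.1 and 23.7% at weaning (adjusted p = 0.136). Weaning library 6 was the highest of the 10, and the groups overlapped.

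Helicobacter, a genus of spiral bacteria of the mucus layer, averaged 8.45% ± 1.58 and 4.21% ± 2.74 in re-separated and weaning libraries (adjusted p = 0.583). The Lachnospiraceae NK4A136 group, a Clostridia lineage common in mice, averaged 6.86% ± 4.33 and 1.88% ± 0.919 (adjusted p = 0.23). Its lowest re-separated library, 27 at 2.28%, lay within the weaning range of 0.879 to 2.92%. Mycoplasma, bacteria without a cell wall, averaged 8.79% ± 4.51 and 7% ± 4.4, and Alistipes, a bile-tolerant member of Bacteroidales, 5.08% ± 1.83 and 4.2% ± 2.07 (both adjusted p = 0.755). In both genera the share was higher after re-separation and the scaled log2 difference below 0 (-0.28 and -0.3), so that no direction is given for them. Bacteroides, a genus of versatile glycan degraders, averaged 3.33% ± 1.26 and 7.1% ± 4.57 (log2 difference -1.89 ± 0.72, adjusted p = 0.0609). Parasutterella, a gut member of the Burkholderiales that does not ferment sugars, averaged 1.65% ± 1.14 and 4.81% ± 3 (log2 difference -2.34 ± 0.84, adjusted p = 0.05 when rounded, just outside the threshold). When only the 10 WT libraries were fitted, Bacteroides, Parasutterella, Prevotellaceae UCG-001 and unnamed Muribaculaceae all passed as lower, as they did without libraries 1, 5, 11 and 19.

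**Figure D3:**
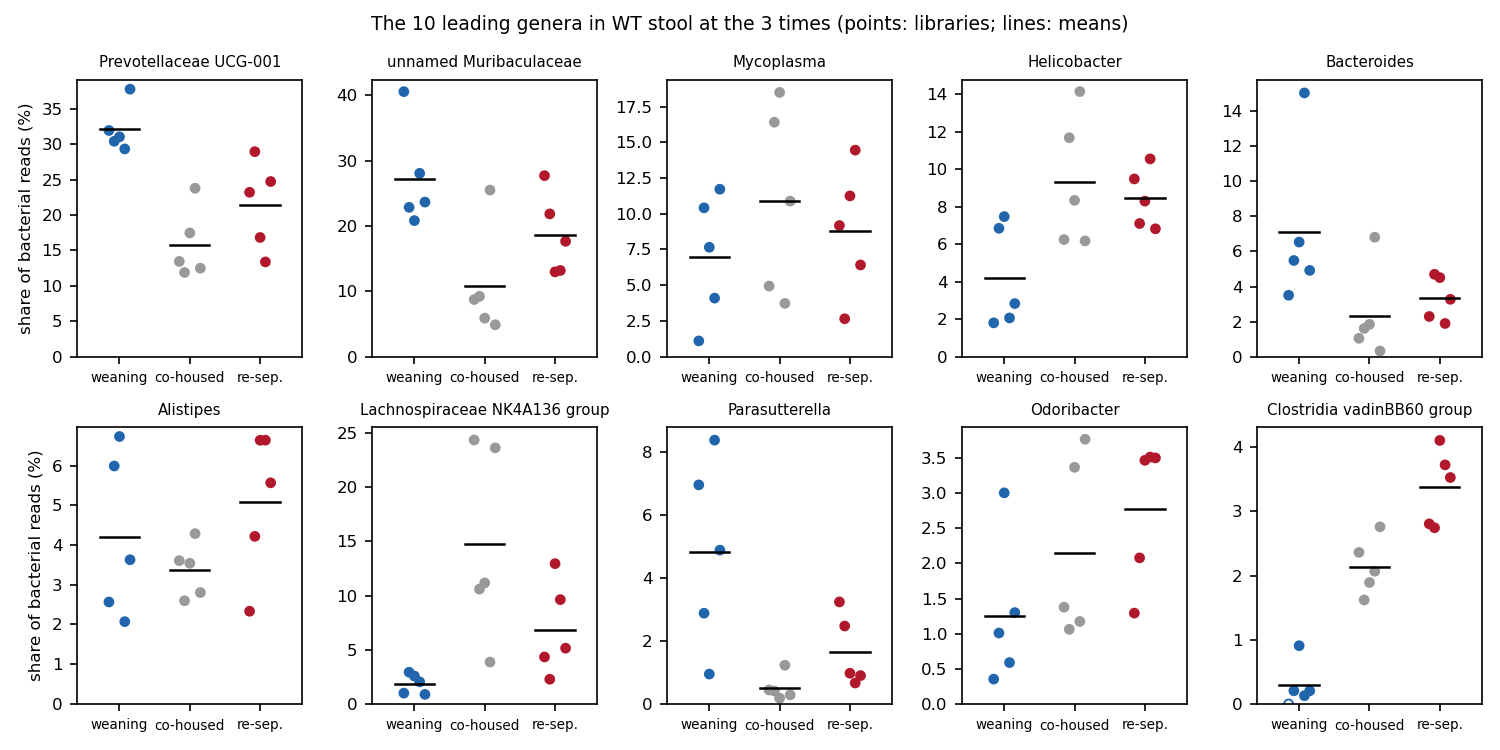
Shares of bacterial reads (%) of the 10 leading WT genera at the 3 times in order, weaning (blue), co-housed (grey) and re-separated (red), 5 libraries each; lines are means and each panel has its own axis from 0. Prevotellaceae UCG-001 is lower in all co-housed and re-separated libraries than in any weaning library, and Clostridia vadinBB60 group is higher in all of them.

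Across the 76 genera tested, 9 changed between WT re-separated and WT weaning stool (11.8%; edgeR quasi-likelihood test, Benjamini-Hochberg adjusted p under 0.05), 7 higher (9.21%) and 2 lower (2.63%) after re-separation. Each of the 9 except Clostridia vadinBB60 group and Gastranaerophilales had a mean share under 1% in both groups. Shares did not overlap between the groups for 18 genera with re-separated libraries above (23.7%) and for 2 with them below (2.63%), Prevotellaceae UCG-001 and Lactobacillus. Gastranaerophilales, related to cyanobacteria but living by fermentation in the gut, was at 0.625, 1.8, 3.21, 1.9 and 8.21% in re-separated libraries, against 0.0723, 0.109, 0.533, 0.0544 and 0.0397% in weaning libraries. The lowest re-separated library, 26, was just above the highest weaning library, 8, and library 30 held the most. It rose by 3.83 ± 0.99 on the log2 scale (adjusted p = 0.00858) and passed in all 22 alternatives and left-out fits. Its re-separated mean was 3.15% with library 30 and 1.88% without it (log2 difference 3, adjusted p = 0.0398), and its weaning mean was 0.162% with library 8 and 0.0687% without it.

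Clostridia vadinBB60 group, an uncultured order-level lineage of Clostridia, was at 2.81, 2.75, 4.11, 3.73 and 3.53% in re-separated libraries, against 0, 0.204, 0.907, 0.129 and 0.204% in weaning libraries. The re-separated values were tightly grouped, whereas weaning library 6 had no read of it and library 8 held more than any other. The rise was 3.05 ± 0.9 on the log2 scale (adjusted p = 0.022), an 11.7-fold ratio of the mean shares. It lost its call without library 6, 7, 9 or 10 (adjusted p up to 0.0602), and without library 8 it was 3.99 (adjusted p = 0.00397) with a weaning mean of 0.134% in place of 0.289%.

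**Figure D4:**
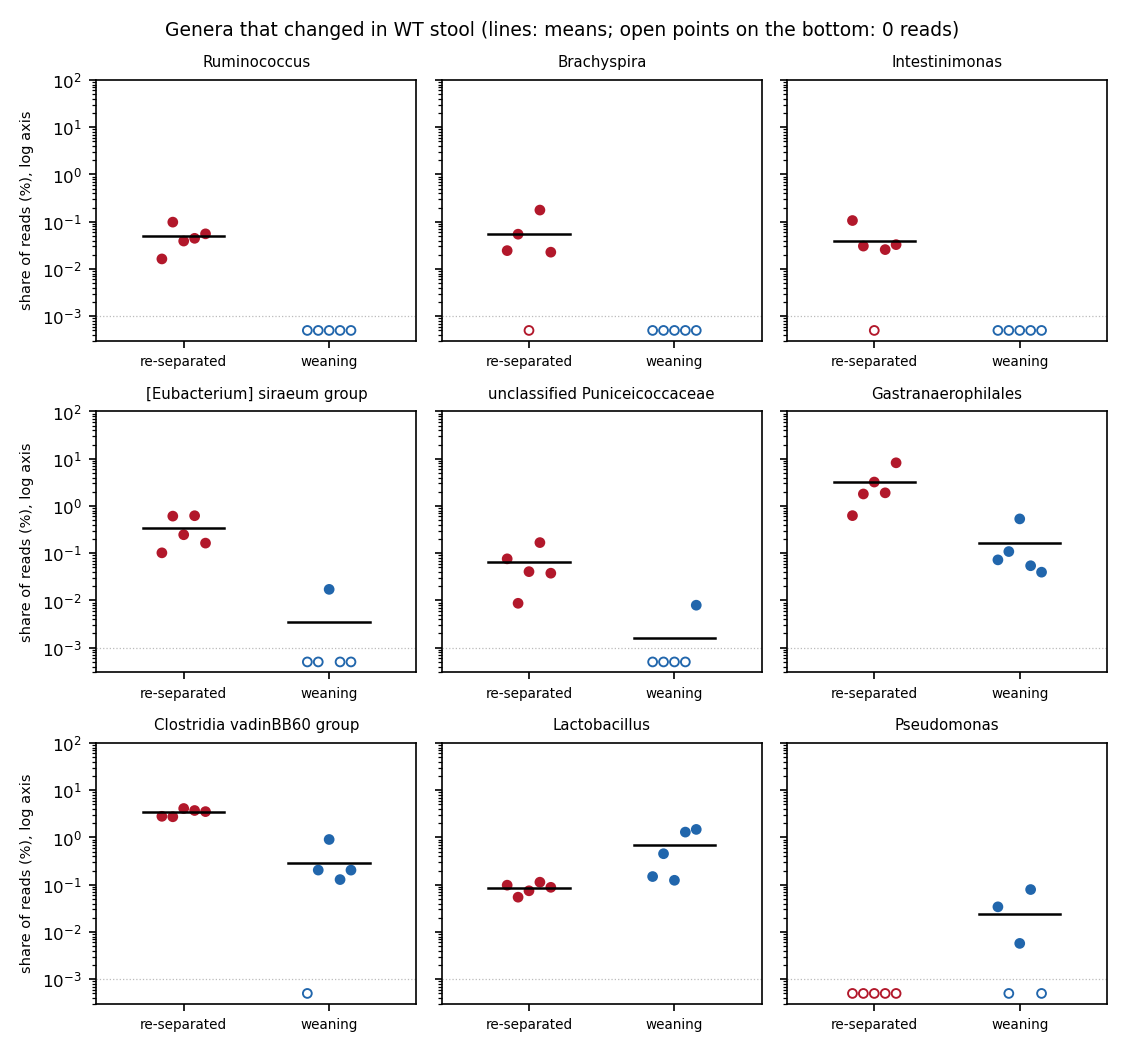
Share of bacterial reads (%, log axis) in the 5 WT re-separated (left, red) and 5 WT weaning (right, blue) libraries for the 9 genera that passed; lines are means and open points under the dotted line are libraries with 0 reads. Gastranaerophilales and Clostridia vadinBB60 group have the highest re-separated shares, and 4 genera have 0 reads in every library of one group.

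Of the other 5 genera that rose, 3 belong to Oscillospirales, the order of many fibre-fermenting anaerobes. The [Eubacterium] siraeum group, named after a xylan-degrading species, was at 0.102, 0.61, 0.246, 0.622 and 0.164% in re-separated libraries, against 0% in weaning libraries 6, 7, 9 and 10 and 0.0172% (9 reads) in library 8. It rose by 5.72 ± 1.71 on the log2 scale (adjusted p = 0.0228), and lost its call without library 6, 7, 9 or 10 (adjusted p up to 0.0736) and with DESeq2 (0.0658); without library 8 the weaning group held no read. Ruminococcus, a genus of cellulose and starch degraders, had 0.0163, 0.098, 0.039, 0.0446 and 0.0554% in re-separated libraries (12 to 45 reads) and 0 reads in all 5 weaning libraries (adjusted p = 0.0369). It was at least 4.19-fold higher against a floor of 3 counts per weaning library. Intestinimonas, which makes butyrate from lysine as well as sugars, had 0.106, 0.0305, 0, 0.0257 and 0.0327% after re-separation and 0 reads at weaning, at least 3.23-fold higher (adjusted p = 0.0369). Only 5 counts in the whole table equal 1, so that low counts may have been removed earlier; 0 reads may then hide more than 3, and these bounds would be too high. Ruminococcus lost its call without library 6, 7, 8, 9, 10 or 27 (adjusted p up to 0.0736) and Intestinimonas without 6, 7, 8, 9, 10 or 26 (up to 0.0887), its re-separated mean being 0.039% with library 26 and 0.0222% without it.

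Brachyspira, a genus of spirochaetes that attach to the colon surface, had 0.0245, 0.0545, 0, 0.177 and 0.0227% in re-separated libraries and 0 reads in all weaning libraries. It was at least 4.6-fold higher (adjusted p = 0.0378), with a mean of 0.0556% that was 0.0254% without library 29. Unclassified Puniceicoccaceae, of a family in Verrucomicrobiota, had 0.0761, 0.00871, 0.0408, 0.168 and 0.0378%, against 0% in 4 weaning libraries and 0.00794% (3 reads) in library 10 (log2 difference 4.21 ± 1.47, adjusted p = 0.0464). Every re-separated library lay above library 10, though library 27 only narrowly. Brachyspira lost its call without library 6, 7, 8, 9, 10 or 29 (adjusted p up to 0.0987) and unclassified Puniceicoccaceae without 6, 7, 8, 9, 26, 28, 29 or 30 (up to 0.103). The mean of unclassified Puniceicoccaceae was 0.0663% with library 29 and 0.0408% without it, and library 10 held all of its WT weaning reads. Brachyspira and Intestinimonas did not pass with DESeq2, limma-voom or limma on centred log-ratios, nor Ruminococcus with the last of these. Unclassified Puniceicoccaceae did not pass with centred log-ratios, without a filter on low counts or with thinned counts.

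Lactobacillus, the lactic acid producer of the small intestine and of milk-fed animals, fell. It was at 0.0978, 0.0545, 0.0744, 0.113 and 0.0882% in re-separated libraries, against 0.149, 0.453, 0.124, 1.3 and 1.48% in weaning libraries. Re-separated libraries lay close together, below the lowest weaning library, 8, and weaning libraries 9 and 10 held about an order of magnitude more than libraries 6 and 8. It fell by 3.89 ± 1.08 on the log2 scale (adjusted p = 0.0142), with means of 0.0856% ± 0.0224 after re-separation and 0.702% ± 0.646 at weaning. Without library 9 the adjusted p was 0.0602, and it was 0.0525 with limma-voom.

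Pseudomonas, an aerobe on the list of genera common in DNA extraction reagents, had 0 reads in all 5 re-separated libraries and 0.034, 0, 0.00573, 0.0791 and 0% in weaning libraries (at most 16 reads), at least 4.15-fold lower (adjusted p = 0.00498). It held 0 reads in all 10 re-separation libraries, WT and KO, and 424 reads in the other 20, of which 17 had some. Its reads were thus confined to the weaning and co-housing library set in both genotypes. Library 9 held most of its WT weaning reads; without it the weaning mean was 0.00994% in place of 0.0238% (adjusted p = 0.0355).

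A further 7 genera had reads in 3 or more libraries of 1 time and 0 reads in all 5 of the other and did not pass, or, for Moraxella, were too rare to be tested. Lachnospiraceae UCG-010, Peptococcus (an amino acid fermenter) and UBA1819 were found in all 5 re-separated libraries, at 0.0126 to 0.0411%, 0.00709 to 0.0394% and 0.00756 to 0.036%, and in 0 weaning libraries (adjusted p = 0.0609, 0.0609 and 0.0734). Against the floor they were at least 1.93-fold, 1.71-fold and 1.61-fold higher. Oscillospira and Acetatifactor each had reads in 3 re-separated libraries (30 and 41 reads in all), Lachnospiraceae A2 likewise (20 reads), and Moraxella had 19 reads in 3 weaning libraries and 0 in the 20 libraries of the KO weaning, KO re-separated, WT co-housed and WT re-separated groups. In all, 13 genera had reads after re-separation only, 10 of which also had reads in WT co-housed libraries, and 9 at weaning only, none above 0.0791% in a library.

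By family, 5 of the 35 tested changed (14.3%), 3 higher (8.57%) and 2 lower (5.71%). Gastranaerophilales, Clostridia vadinBB60 group and Peptococcaceae (0.0207% ± 0.0118 after re-separation and 0 reads at weaning; adjusted p = 0.0359) rose, and Lactobacillaceae and Pseudomonadaceae fell. In the WT libraries each of the 5 had the same shares as a single genus, so these calls are no separate evidence. Peptococcus did not pass as a genus. Brachyspiraceae, with the shares of Brachyspira, did not pass as a family (edgeR quasi-likelihood test, adjusted p = 0.0503). Lachnospiraceae, a family with many butyrate producers, averaged 10.6% ± 5.31 after re-separation and 2.88% ± 1.31 at weaning without passing (adjusted p = 0.132). Bacteroidaceae averaged 3.33% ± 1.26 and 7.1% ± 4.57 (adjusted p = 0.0503), and Sutterellaceae, the family of Parasutterella, 1.65% ± 1.14 and 4.81% ± 3 (adjusted p = 0.0593). Clostridia vadinBB60 group also lost its call without library 7 or 10, Gastranaerophilales without 10 and Peptococcaceae without 6, 7, 8, 10 or 29. Peptococcaceae did not pass with limma-voom or limma on centred log-ratios (adjusted p up to 0.136), nor Lactobacillaceae with limma-voom (0.0657). Without library 9, 0 families passed (edgeR, 11 at an unadjusted p under 0.05), with adjusted p of 0.0637 for the top ones, whereas DESeq2 called 11 families, limma-voom 4 and limma on centred log-ratios 8 on all libraries.

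By order, log2 differences above 0 were found for 15 of 17 genera of Oscillospirales and 14 of 17 of Lachnospirales, the main orders of Clostridia, against 2 of 11 of Bacteroidales and 47 of all 76. Of the 17 Oscillospirales genera tested, 3 rose and 0 fell, beside 7 of 76 genera that rose (9.21%); DESeq2 called 1 of the 17, limma-voom 4 and limma on centred log-ratios 2, all higher. The median log2 difference was 1.44 (0.78 with genera absent from a group set at their bound), against 0.56 over all 76 genera. The summed share of the order, with 1 untested genus, was 2.42, 3, 2.95, 4.92 and 2.26% in re-separated libraries, against 1.03, 1.35, 1.47, 0.336 and 0.529% in weaning libraries, so that all re-separated libraries were higher. Beside the genera that passed, Colidextribacter averaged 0.853% ± 0.207 and 0.346% ± 0.195 and Oscillibacter, a valerate producer, 0.455% ± 0.253 and 0.103% ± 0.0713 in re-separated and weaning libraries (adjusted p = 0.554 and 0.235). Lachnospirales held 8.23, 4.36, 15.7, 16.6 and 8.12% after re-separation, against 1.69, 3.75, 4.42, 3.17 and 1.38% at weaning. Only re-separated library 27 lay below the highest weaning library, 8. The median of its 17 tested genera was 1.22 (0.91 at the bounds); 0 passed with edgeR (5 at an unadjusted p under 0.05), 1 with DESeq2, 2 with limma-voom and 2 with limma on centred log-ratios, all higher. Blautia, a genus of this order that makes acetate, was at 0.149, 0.0784, 0.0922, 0.123 and 0.103% in re-separated libraries, against 0.0298% in weaning library 6 and 0% in the other 4 (log2 difference 3.42 ± 1.31, edgeR adjusted p = 0.0609). Every re-separated library lay above library 6, and the genus passed with DESeq2, limma-voom and limma on centred log-ratios.

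Of the 11 Bacteroidales genera tested, 0 passed with edgeR (3 at an unadjusted p under 0.05), 0 with DESeq2 or limma-voom, and 3 as lower with limma on centred log-ratios. Their median log2 difference was -0.7 and 2 of 11 lay above 0; scaled by library size alone, the median was 0.14 and 6 lay above 0, so the sign of the median rests on the scaling. The summed share, 56.6% ± 12 after re-separation and 76.3% ± 6.08 at weaning, was carried by Prevotellaceae UCG-001 and unnamed Muribaculaceae. The 6 genera with reads on the list of butyrate-forming Clostridia held 0.742% ± 0.313 and 0.219% ± 0.108 of reads without overlap; 5 of them were tested, and 1, Intestinimonas, rose. Roseburia averaged 0.178% ± 0.0821 and 0.0206% ± 0.034 (adjusted p = 0.108), whereas Anaerotruncus averaged 0.041% ± 0.0264 and 0.0731% ± 0.0198 (adjusted p = 0.296).

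Residents of mucus or epithelium summed to 9.52% ± 2.23 of reads after re-separation and 4.42% ± 2.84 at weaning, mostly Helicobacter, with 0 of 4 genera passing in edgeR (1 at an unadjusted p under 0.05), DESeq2, limma-voom or limma on centred log-ratios. Mucispirillum was at 0.597, 0.166, 1.81, 2.06 and 0.572% in re-separated libraries, against 0.0809, 0.306, 0.279, 0.089 and 0.0874% in weaning libraries, with library 27 alone inside the weaning range (log2 difference 2.04 ± 0.87, adjusted p = 0.104). Candidatus Arthromitus, the segmented filamentous bacteria that attach to the ileum and elicit Th17 cells, averaged 0.0219% ± 0.0136 and 0.0447% ± 0.0307 (adjusted p = 0.428). Akkermansia, the mucin degrader, had 5 reads in 1 re-separated library and 4 reads in 1 weaning library. Proteobacteria with Desulfobacterota summed to 2.91% ± 1.19 and 5.24% ± 3.12, and of 8 genera tested only Pseudomonas passed. The 9 genera listed as common in reagents summed to 0% and 0.0275% ± 0.0387. Within Desulfobacterota, uncultured Desulfovibrionaceae averaged 0.892% ± 0.195 and 0.254% ± 0.141 without overlap (adjusted p = 0.405). Mollicutes without a wall summed to 9.41% ± 4.42 and 8.35% ± 5.33, Erysipelotrichales to 0.0317% ± 0.0182 and 0.0762% ± 0.0438 and Enterobacterales to 0.00386% ± 0.00376 and 0.000764% ± 0.00171, with 0 genera passing in edgeR and 0 at an unadjusted p under 0.05; limma on centred log-ratios called 1 Erysipelotrichales genus lower.

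Within genera, the sums hid different depths of variety. In WT re-separated libraries Prevotellaceae UCG-001 had 3 rows with reads, 1 of which held 96.6% of its reads, and in weaning libraries 2 rows, 1 with 97.8%. Mycoplasma, Ureaplasma and the [Eubacterium] siraeum group rested on 1 row or on 1 with nearly all reads at each time. By contrast, unnamed Muribaculaceae spread over 57 rows after re-separation and 48 at weaning, the leading one holding 17.7% and 14.9% of the reads, and Clostridia vadinBB60 group over 26 and 16 rows (34.9% and 26.7%). Gastranaerophilales had 4 rows after re-separation and 3 at weaning, with 68.1% and 70.8% in the leading one. Rows cannot be matched across the 2 library sets, and more rows are found in deeper libraries, so that these figures describe each time by itself.

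KO mice cross the same 2 library sets and gave the test of whether the change differed between WT and KO. Such a difference can lie in the WT change, in the KO change or in both. Between KO re-separated and KO weaning stool 21 of 76 genera changed (27.6%), 18 higher (23.7%) and 3 lower (3.95%), and 8 of 35 families (22.9%), 6 higher (17.1%) and 2 lower (5.71%). The WT and KO lists share 4 genera, 44.4% of the WT list and 19% of the KO list, all in the same direction: Clostridia vadinBB60 group, Intestinimonas and the [Eubacterium] siraeum group were higher and Pseudomonas lower in both. Clostridia vadinBB60 group averaged 1.44% ± 1.3 in KO re-separated and 0.33% ± 0.371 in KO weaning libraries, a log2 difference of 2.6 ± 0.89 (adjusted p = 0.0198) beside 3.05 ± 0.9 in WT; the difference of the 2 changes was 0.45 ± 1.18 (adjusted p = 0.853). For composition as a whole, time and library set together accounted for 19.1% of the squared distance in KO (exact permutation test, p = 0.119) and for 43.6% in WT (p = 0.0159). These 2 values were not tested against each other. The mean distance between the times was larger in KO, 0.392, than in WT, 0.328. Spread within a group also lowers the share. KO weaning libraries lay 0.344 to 0.5 from their group mates on average, and WT weaning libraries 0.19 to 0.26. The mean distance from WT to KO libraries was 0.28 after re-separation and 0.363 at weaning. These are to be read beside the spread within KO. KO re-separated libraries lay 0.246 to 0.293 from their group mates, closer together than the KO weaning libraries.

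The change over time differed between WT and KO for 14 of 76 genera (18.4%; interaction contrast, edgeR), 4 with a more positive change in WT (5.26%) and 10 with a more negative one (13.2%). Gastranaerophilales and Lactobacillus, which passed in WT, are 2 of them. Gastranaerophilales stood at 3.15% ± 2.97 in WT re-separated and 0.162% ± 0.209 in WT weaning libraries, against 1.3% ± 0.682 in KO re-separated and 2.4% ± 1.69 in KO weaning libraries. KO libraries thus held it at both times, and the WT change exceeded the KO change by 4.09 ± 1.29 (adjusted p = 0.0248; 0.0733 without library 30, and lost without library 1 or 24 as well). Lactobacillus was at 0.166% ± 0.142 in KO re-separated and 0.239% ± 0.129 in KO weaning libraries, and the WT change was lower than the KO change by 3.91 ± 1.41 on the log2 scale (adjusted p = 0.0433). This call was lost in 13 of the 20 left-out fits, without library 1, 3, 5, 9, 10, 21 or any of 24 to 30 (adjusted p up to 0.138).

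For 6 of the 10 genera with a more negative change in WT, all 5 KO weaning libraries had 0 reads, while WT libraries had reads at both times for 5 of these 6. Clostridia UCG-014, an uncultured Clostridia lineage, averaged 0.25% ± 0.138 in WT re-separated and 0.15% ± 0.157 in WT weaning libraries, against 0.0821% ± 0.0178 in KO re-separated libraries and 0 reads at KO weaning (adjusted p = 0.00808). RF39 (0.0589% ± 0.0304 and 0.112% ± 0.136 in WT, 0.0805% ± 0.13 and 0% in KO; adjusted p = 0.00383) and the Oscillospiraceae NK4A214 group (0.0859% ± 0.0205 and 0.0374% ± 0.0429 in WT, 0.0727% ± 0.0575 and 0% in KO; adjusted p = 0.0152) likewise had reads in every group except KO weaning, each pair being re-separated and weaning. Uncultured Erysipelotrichaceae, Tuzzerella and Candidatus Stoquefichus had adjusted p of 0.00376, 0.0433 and 0.0196, the last resting on 4 reads in WT weaning library 8, without which its adjusted p was 1. Rikenellaceae RC9 gut group had reads in 3 of the KO weaning libraries: it averaged 1.19% ± 0.673 and 1% ± 0.484 in WT re-separated and weaning libraries, against 1.35% ± 0.797 and 0.0349% ± 0.0353 in KO. The WT change was lower than the KO change by 5.86 ± 1.36 (adjusted p = 0.00368). This genus and uncultured Erysipelotrichaceae were called in every alternative and left-out fit that was run, also with limma-voom and limma on centred log-ratios, which called no other genus.

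Odoribacter, a producer of short-chain fatty acids, averaged 2.77% ± 1.03 and 1.25% ± 1.05 in WT re-separated and weaning libraries, against 2.15% ± 0.975 and 0.236% ± 0.139 in KO (difference of the changes -3.23 ± 1.11, adjusted p = 0.0398; 0.0685 without library 8). Ureaplasma, a wall-less bacterium that splits urea, averaged 0.62% ± 0.369 and 1.36% ± 1.13 in WT, against 1.05% ± 0.836 and 0.349% ± 0.21 in KO (-3.62 ± 1.27, adjusted p = 0.0423; 0.129 without library 25). Blautia averaged 0.109% ± 0.0278 and 0.00596% ± 0.0133 in WT, against 0.0729% ± 0.0566 and 0.347% ± 0.54 in KO (5.32 ± 1.75, adjusted p = 0.0321; 0.0854 without library 1). Akkermansia was nearly absent from WT stool at both times and averaged 0.00993% ± 0.00706 in KO re-separated and 1.54% ± 2.35 in KO weaning libraries (adjusted p = 0.0433). Its WT side rests on 9 reads, and the adjusted p was 0.858 without library 26 and 0.144 without library 1. Unclassified Puniceicoccaceae averaged 0.0271% ± 0.0199 and 0.0853% ± 0.13 in KO re-separated and weaning libraries (adjusted p = 0.0433; 0.15 without library 5). Odoribacter lost its call without library 8, 21, 22, 24, 25, 26, 27, 29 or 30, Ureaplasma without 3, 7, 10, 21, 24, 25, 26, 29 or 30, and Blautia without 1, 7, 21, 24, 26 or 30. Akkermansia lost it without library 1, 6, 7, 8, 9, 21, 22, 24, 26 or 30. Tuzzerella and unclassified Puniceicoccaceae each lost it without 15 of the 20. Over all 31 alternatives and left-out fits, Tuzzerella was called in only 9 and unclassified Puniceicoccaceae in only 10. Single libraries moved group means by over 1.5 times. Without library 1 the KO weaning mean of Blautia was 0.118% and that of Akkermansia 0.506%, and without library 5 that of unclassified Puniceicoccaceae was 0.0279%. Without library 25 the KO re-separated means of Ureaplasma and Tuzzerella were 0.688% and 0.0261%, and without library 24 that of Lactobacillus was 0.104%. The WT weaning mean of Odoribacter was 0.812% without library 8 and that of Tuzzerella 0.00907% without library 7. Where the call was kept, the WT weaning mean of Clostridia UCG-014 was 0.0929% without library 8, that of Oscillospiraceae NK4A214 group 0.0212% without library 7 and that of RF39 0.06% without library 10. The KO re-separated mean of RF39 was 0.0234% without library 22, and the KO weaning mean of Rikenellaceae RC9 gut group 0.0231% without library 2. For families, 6 of 35 differed (17.1%): Akkermansiaceae and Gastranaerophilales with a more positive change in WT (5.71%), and Clostridia UCG-014, Erysipelatoclostridiaceae, Marinifilaceae and RF39 with a more negative one (11.4%). Akkermansiaceae lost its call without library 1, 8, 22 or 26, Gastranaerophilales without 1 or 30, Marinifilaceae without 8, 22 or 26, RF39 without 22 and Erysipelatoclostridiaceae without 9. With limma-voom none of these 6 passed, with limma on centred log-ratios Akkermansiaceae and Gastranaerophilales alone, and Marinifilaceae did not with TMM or library size scaling. With DESeq2 Erysipelatoclostridiaceae did not pass. Without libraries 1, 5, 11 and 19, 0 families passed with edgeR (11 at an unadjusted p under 0.05).

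**Figure D5:**
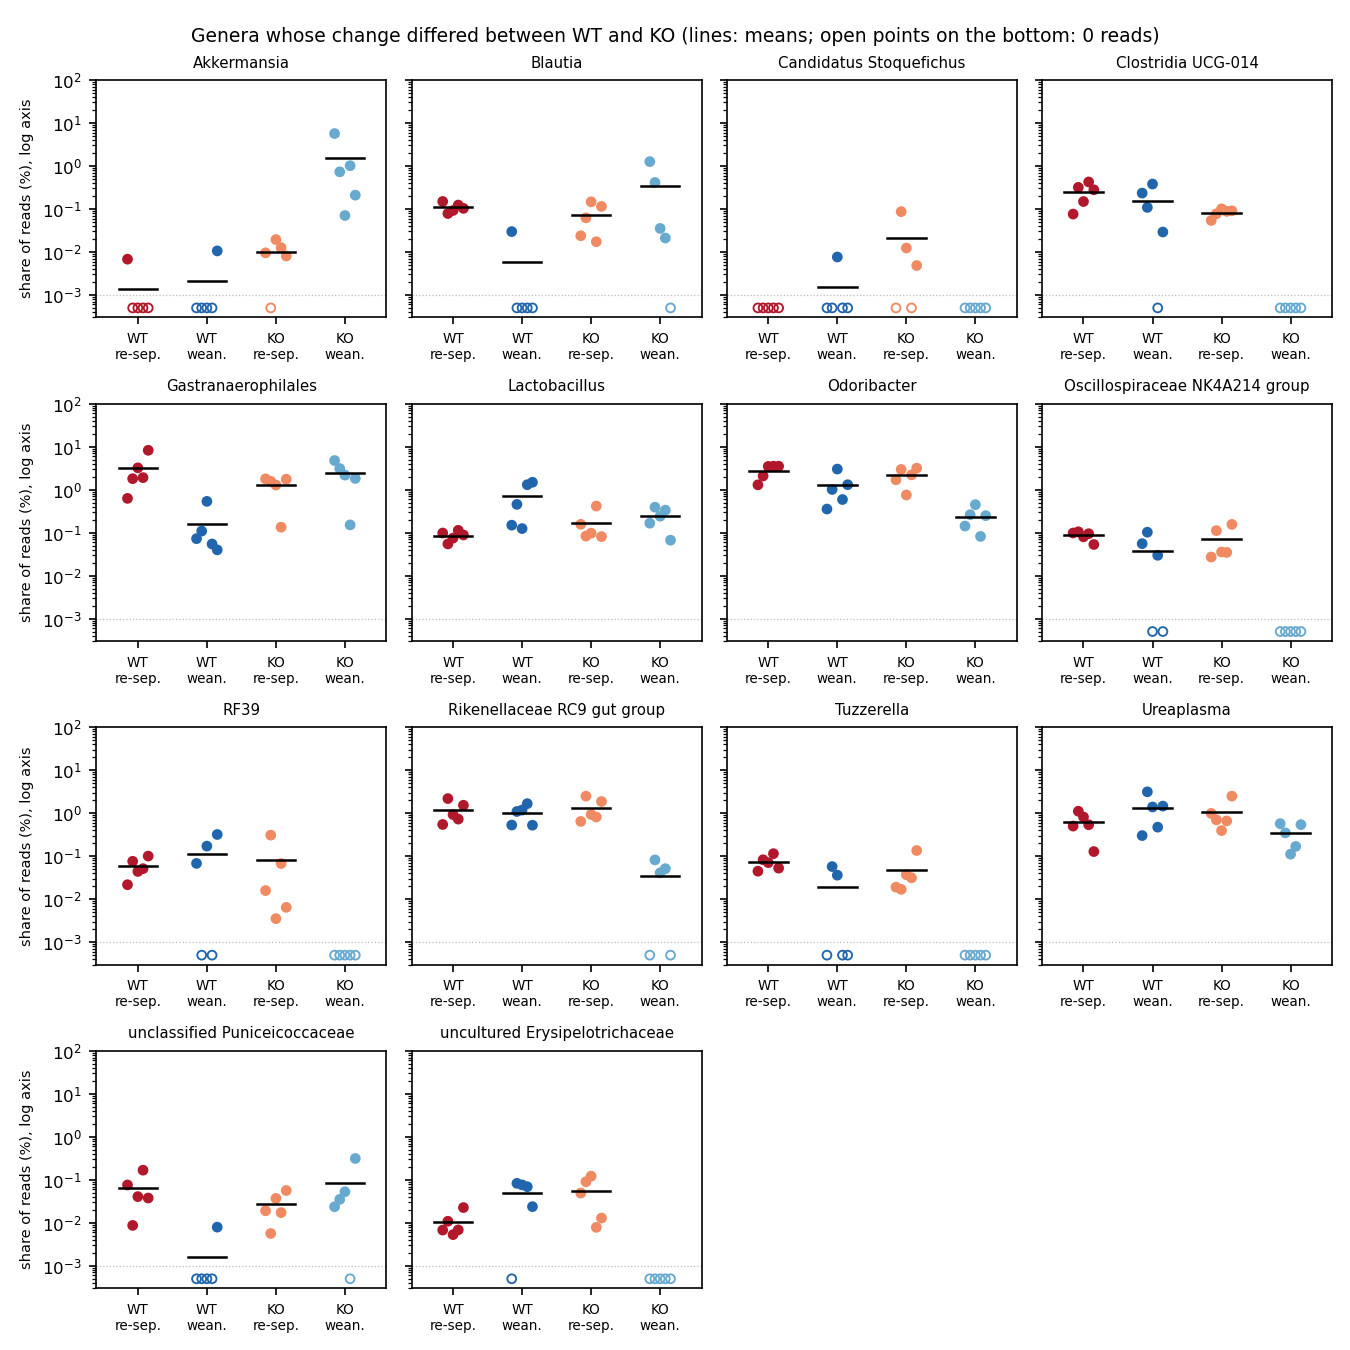
Share of bacterial reads (%, log axis) of the 14 genera whose change differed between WT and KO, in WT re-separated, WT weaning, KO re-separated and KO weaning libraries, from left to right (5 each); lines are means and open points under the dotted line are libraries with 0 reads. In 6 panels all KO weaning points are at 0 reads. In the panel of Gastranaerophilales the WT weaning mean lies lowest, but the points overlap those of KO. WT weaning library 8 (0.533%) lies above KO re-separated library 24 (0.134%) and KO weaning library 4 (0.151%).

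Over the 3 times, WT stool after co-housing was farther from WT weaning stool than re-separated stool was. The mean Bray-Curtis distance to WT weaning libraries was 0.502 for WT co-housed and 0.328 for WT re-separated libraries, with library 19 standing apart in the co-housed group. Both comparisons share the weaning libraries, and co-housed libraries belong to the same library set as the weaning ones. Between WT co-housed and WT weaning stool 22 of 76 genera changed (28.9%), 16 higher (21.1%) and 6 lower (7.89%), and 13 of 35 families (37.1%), 8 higher (22.9%) and 5 lower (14.3%). Between WT re-separated and WT co-housed stool 1 did (1.32%), Pseudomonas (edgeR, 9 at an unadjusted p under 0.05), and 2 of 35 families (5.71%).

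The time courses of the named genera took different forms. Mean shares are given in the order weaning, co-housed, re-separated. Lactobacillus averaged 0.702%, 0.1% and 0.0856%, and its log2 difference from weaning was -3.89 at both later times (adjusted p = 0.00904 and 0.0142). Prevotellaceae UCG-001 averaged 32.1%, 15.8% and 21.4%, with log2 differences from weaning of -1.91 after co-housing (adjusted p = 0.00917) and -1.24 after re-separation (adjusted p = 0.106). Parasutterella was at 4.81%, 0.51% and 1.65%, and its value after co-housing was called (-4.21, adjusted p = 0.00121). The Lachnospiraceae NK4A136 group averaged 1.88%, 14.7% and 6.86%, called after co-housing as well (1.96, adjusted p = 0.0368). Gastranaerophilales averaged 0.162%, 0.545% and 3.15%, with a log2 difference of 1.05 from weaning after co-housing (adjusted p = 0.327). Clostridia vadinBB60 group averaged 0.289%, 2.14% and 3.38% (2.11 after co-housing, adjusted p = 0.0557). After co-housing, Intestinimonas averaged 0.0715% with reads in 3 of 5 libraries, Ruminococcus 0.0295% in 3, Brachyspira 0.0958% in 2 and the [Eubacterium] siraeum group 0.431% in 2. Richness at equal depth was 63.9 ± 3.12 genera after co-housing, between the weaning and re-separated means, and the Shannon index was 2.78 ± 0.205, above both.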

How the data were processed

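Per the labels' protocols, DNA was purified from stool with a column kit and V4 amplicons were sequenced from both ends. The deposited values are raw counts of reads per sequence variant, each with names given by the authors down to genus. Tools listed in the submitters' processing notes are R 4.5.1 and limma, with their use unstated. Denoising settings, taxonomic reference and read filters: not given in the sources used here. Rows named mitochondria were left out, and counts were summed by genus (uncultured and unclassified members of a family kept apart), family and phylum. Genera with at least 10 reads in at least 3 of 30 libraries were tested with edgeR 4.0.16 (R 4.3.3; glmQLFit robust, TMMwsp, 1 coefficient per group, Benjamini-Hochberg, threshold 0.05), where ± on a log2 difference is the SE. DESeq2 1.42.0, limma 3.58.1 (voom, or centred log-ratios with pseudocount 0.5), other scalings, filters, sample sets and left-out libraries were alternatives. Single values were tested by exact two-sided permutation (Python 3.11.15, scipy 1.17.1). The ± on a mean share or index is the SD between libraries. Floors (3 counts per library) cover counting error only. Named were genera called in WT or in the interaction, the 10 leading ones, and those in 3 or more libraries of 1 group and 0 of the other; members of lists named beside them were chosen after their values were seen. The compared groups and taxon lists were chosen with earlier results of these data known. The fit was tested on simulated counts of the 76 genera, with 10 of them changed between the 2 WT groups. It recovered 7% of 4-fold, 58.5% of 16-fold and 93.5% of 64-fold changes. A genus that did not pass may therefore still have changed.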

Additional observations from a re-analysis of the deposited data

Results flagged for a closer look

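In 8 of 80 tests for a sample far from the others of its group (Dixon's test, n = 5), 1 library lay outside. Chance alone flags about 1 in 20 for normally distributed values, a rate that skewed shares with many zeros need not follow. Where all other libraries of a group hold 0 reads, any read is flagged. Bacteroides and Bacteroidaceae hold the same reads here, so their flags are not separate. Of the 5 WT weaning libraries, library 9 held 15% Bacteroides, and likewise 15% Bacteroidaceae, against at most 6.54% in the others. Library 8 held 0.907% Clostridia vadinBB60 group (next 0.204%), 0.533% Gastranaerophilales (next 0.109%) and 0.0172% [Eubacterium] siraeum group (next 0%). It is also the deepest WT weaning library, with 52364 bacterial reads. Library 7 held 0.0511% Moraxella (next 0.0134%), and library 10 held 0.00794% unclassified Puniceicoccaceae (next 0%). Among WT re-separated libraries, library 26 held the least Rikenellaceae, 3.46%, where the next held 6.94%.

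The change from weaning to re-separation differed between WT and KO, by the interaction test of edgeR, for 14 genera. Adjusted p was 0.00368 for Rikenellaceae RC9 gut group, 0.00376 for uncultured Erysipelotrichaceae, 0.00383 for RF39, 0.00808 for Clostridia UCG-014, 0.0152 for Oscillospiraceae NK4A214 group, 0.0196 for Candidatus Stoquefichus, 0.0248 for Gastranaerophilales, 0.0321 for Blautia, 0.0398 for Odoribacter and 0.0423 for Ureaplasma. It was 0.0433 for Akkermansia, Lactobacillus, Tuzzerella and unclassified Puniceicoccaceae. Of families, Clostridia UCG-014, Erysipelatoclostridiaceae, Gastranaerophilales and RF39 had an adjusted p of 0.0197, and Akkermansiaceae and Marinifilaceae one of 0.0279.

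Reads named mitochondria, which enter no comparison, averaged 0.161% ± 0.126 in WT re-separated and 0.0332% ± 0.0235 in WT weaning libraries (SD, n = 5 each), and 0.608% ± 0.317 in WT co-housed libraries.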

How the results depend on the processing

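Of 169 recomputed summary values, 120 kept their side or stayed within 1.5 times, and 49 moved. Counts of features that passed and shares of distance have no sign that could reverse. A kept count can also hold other members. Of the 9 genera changed in WT, 6 were among the 10 of limma-voom and 5 among the 9 found without library 8. TMM scaling kept all 9. Genera changed in WT numbered 9 with the chosen settings (7 higher, 2 lower), 15 scaled by library size alone (13 higher), 14 with limma on centred log-ratios (6 higher, 8 lower), 5 of 40 under a filter of 50 reads in 5 libraries, 19 of 59 with only the 2 WT groups, 14 with only the 20 weaning and re-separation libraries, and 18 without libraries 1, 5, 11 and 19, a setting chosen after seeing the data. Leaving out 1 library gave 2 to 9: 2 without library 9, 3 without 7, and 4 without 6 or 10. Families changed in WT numbered 5, against 10 with TMM, 9 with library size, 8 with DESeq2 size factors, 11 with DESeq2, 8 with centred log-ratios (2 higher, 6 lower), 10 without a filter, 9 with the 2 WT groups, 10 with the 20 libraries, 9 with thinned counts (3 higher, 6 lower) and 13 without libraries 1, 5, 11 and 19; left-out fits gave 0 to 10. Genera that differed between WT and KO numbered 14, against 2 with limma-voom, 2 with centred log-ratios, 9 under the filter of 50 reads and 9 with the 20 libraries; left-out fits gave 6 (without library 24 or 30) to 16. Families that differed numbered 6, against 1 with limma-voom, 3 with centred log-ratios, 3 under the filter and 0 without libraries 1, 5, 11 and 19 (edgeR, 11 at an unadjusted p under 0.05); left-out fits gave 2 (without library 22) to 7. Phyla that passed numbered 4, against 1 of 6 over reads with a genus name, 2 with centred log-ratios, and 0 to 6 with 1 library left out. The cause was not tested, except that the stricter filter tests fewer features. The median log2 difference of all genera was 0.56, and 0.75 with TMM, 1.14 with library size, 0.9 with limma-voom and 0.15 with centred log-ratios. With 1 library left out, the share of the squared distance that goes with time and library set together stayed at 38.4 to 52.7% (exact permutation p 0.00794 to 0.0317). The 3 diversity differences then stayed at 17.7 to 21.3 genera, 0.486 to 0.618 and 3.06 to 4.31. No paired analysis was possible because the groups share no replicate number and the labels do not follow mice over time. Depth limits the rare genera: 3 counts are 0.00573 to 0.0192% of a WT weaning library and 0.00408 to 0.00756% of a re-separated one.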
